A study of Rattus norvegicus with 14 samples.

Results

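The genes described here encode proteins of mitosis, the division of copied chromosomes (24 genes), and of DNA replication, the copying itself (18 genes). They were read in peripheral blood mononuclear cells (PBMC), the lymphocytes and monocytes of blood, of rats. The 42 genes were listed by symbol. Each was measured with the probe set, a group of short probes for 1 transcript, that is paired with its symbol alone and has the highest mean log2 signal over the 14 arrays. This gave values for 39 of the 42 genes, 23 of mitosis and 16 of replication, among 14217 genes on the array with such a probe set. Tpx2 and Cdc6 were not matched to a probe set and Rrm2 was matched only to probe sets that name several genes, so these 3 are not analysed here.

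All rats were female and of the Wistar strain. NORA rats were healthy and sampled before therapy (3 arrays), and RA rats had collagen-induced arthritis, a model raised by immunisation with bovine type II collagen in adjuvant, and were sampled before therapy (2 arrays). The other groups were sampled after 34 days. HAP rats were healthy and received acupuncture, in which a thin needle is inserted and turned (3 arrays), AP rats were arthritic and received the same (3 arrays), and MTXAP rats were arthritic and received needling with methotrexate (MTX), a folate antagonist that limits the supply of DNA precursors (3 arrays). RA, AP and MTXAP rats thus share the immunisation, and HAP, AP and MTXAP rats share the needling. No group was sampled on day 34 without needling, and methotrexate was never given alone, so time and needling cannot be told apart between an earlier and a later group. Since sampling ended each rat's life, a replicate number marks no shared animal. The labels do not say whether each array is 1 rat, and p-values measure only the spread between these arrays.

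Cells that prepare to divide first load the Mcm2 to Mcm7 helicase on DNA, open it in S phase and copy it with primase, polymerases, a sliding clamp (Pcna) and enzymes that finish the lagging strand. After that they raise cyclin B with its kinase Cdk1, and build a spindle whose kinesins, Aurora and Polo kinases and checkpoint proteins pull the chromosomes apart. Genes of replication are commonly driven by E2F transcription factors, and genes of mitosis later in the cycle by complexes that bind the cell cycle homology region (CHR) of their promoters. Most cells in blood rest outside the cycle, and methotrexate is known for stalling dividing cells in S phase.

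The median signal of an array ran from 104 to 149. NORA replicate 3 and MTXAP replicate 3 stand apart, with mean correlations with the other arrays of 0.856 and 0.882, against 0.912 to 0.934 for the other 12. They hold the extremes of the summed signal of 12 erythroid markers (genes of red cell precursors), 239030 on NORA replicate 3 and 5435 on MTXAP replicate 3, against 47467 to 105530 on the others. Of the markers of the labelled cells, 16 of 17 for T cells, 7 of 7 for B cells, 9 of 10 for NK cells and 12 of 12 for monocytes were above background. Background was set at the array median: a gene is near background here when its signal was above the median of its array on 7 or fewer of the 14 arrays. Of 37 genes of tissues absent from blood, 3 were above this limit (8.11%), and of all genes 61.6%.

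Replication genes were clearly measured in these cells and mitosis genes only in part. Above background were 14 of the 16 replication genes, 13 of them on all 14 arrays, and 14 of the 23 mitosis genes, 8 of them on all 14 arrays. Every Mcm subunit, the clamp Pcna and the clamp loader subunit Rfc4, the primase subunit Prim1, the flap endonuclease Fen1, the ligase Lig1, the ribonucleotide reductase subunit Rrm1 and the licensing inhibitor Gmnn were above the median on every array, and the polymerase subunit Pola1 on 12. Of the replication genes, the cyclins that start S phase were near background. Ccne1 was above the median on no array and Ccne2 on 5. Second, dimmer probe sets of Lig1, Gmnn and Ccne2 were above it on 8, 3 and 6 arrays.

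Among mitosis genes the probe sets of the spindle kinases were split. Aurka, a centrosome kinase, was above the median on 13 arrays and Aurkb, the kinase of the chromosomal passenger complex, on 12, while the Polo kinase Plk1 and the checkpoint kinase Ttk were above it on none. The checkpoint genes Bub1b and Bub1 were above it on 3 and 4 arrays. Of the kinetochore proteins, Cenpf was above it on 5 and Cenpe on none. The near-background mitosis genes also include the S phase and mitosis cyclin Ccna2 (1 array), the spindle kinesin Kif11 (6) and the passenger protein Cdca8 (4). Mki67, a marker of cycling cells, the cyclin Ccnb2, the midzone protein Prc1 and the kinesin Kif23 were above it on all 14. So were the topoisomerase Top2a, the spindle protein Nusap1, the anaphase activator Cdc20 and the ubiquitin enzyme Ube2c. These counts hold for the brightest probe set of a gene. Probe sets of the same gene can differ widely, so the counts do not rank genes by their RNA. Other, dimmer probe sets were above the median on 0, 1, 2 and 0 arrays for Cdc20 and 0 for Kif23. For Top2a it was 5, for Ccnb1 5 and for Nusap1 13.

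The 9 genes that varied least between arrays of the same group were all replication genes. The SD within groups, pooled over the 5 groups, was lowest for Prim1 (0.19), Rfc4 (0.19), Mcm3 (0.22) and Lig1 (0.24). It was highest for Ube2c (1.46) and Kif20a (1.36) and, near background, for Ttk (1.31), Cenpe (1.19) and Cdca8 (1.15). Signal level differed too: Prim1, Rfc4, Mcm3 and Lig1 averaged 9.67 to 10.15 over the 14 arrays, and Ttk, Cenpe and Cdca8 3.86 to 6.25. Ube2c averaged 10.37 and Kif20a 6.75. The part of signal level in the spread was not tested. Cdc20 ranged from 7.30 to 8.73 over the 14 arrays, Kif23 from 7.31 to 8.74 and Prc1 from 7.42 to 8.84, and their groups overlapped in AP minus RA and in MTXAP minus AP.

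**Figure D1:**
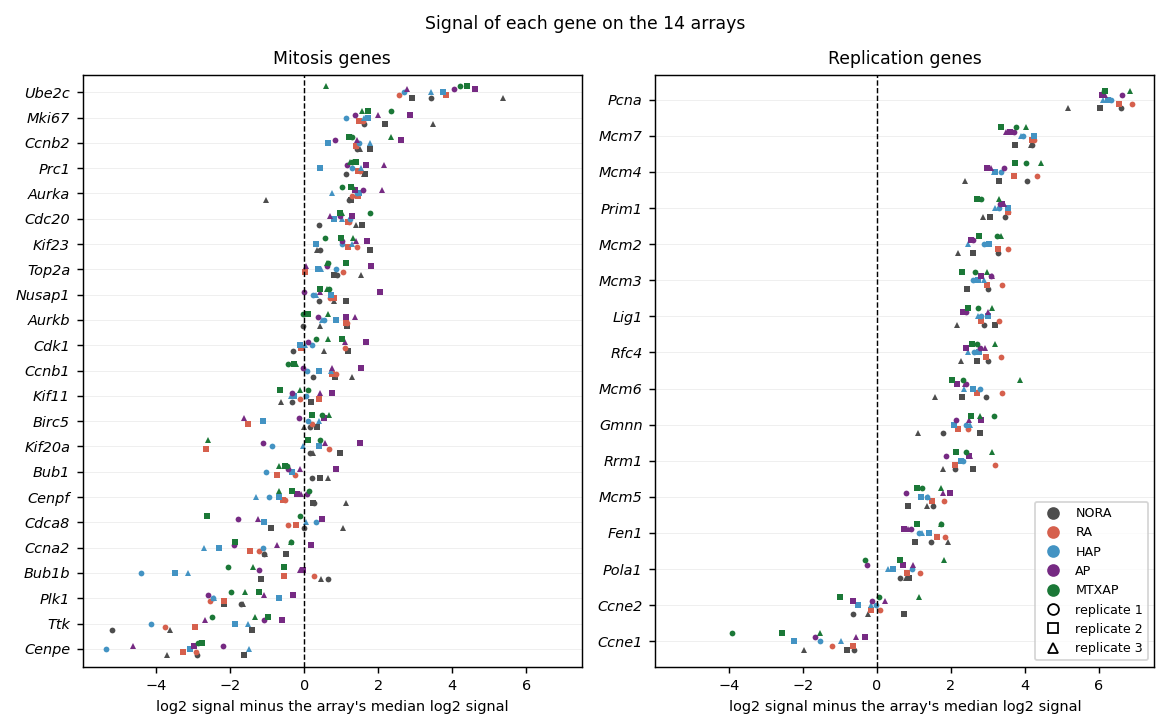
Log2 signal of each mitosis gene (left) and replication gene (right) minus the median log2 signal of its array (horizontal axis, dashed line at 0), with 1 point per array, coloured by group and shaped by replicate. All points of 13 replication genes lie right of the line, while Plk1, Ttk, Cenpe and Ccne1 have no point right of it.

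The promoters of these genes share sequence features that the choice of genes did not use. RefSeq promoters (assembly GRCr8, 250 bases before to 50 after the start of transcription) were found for 20 of the 23 mitosis genes and 14 of the 16 replication genes. Missing from that table were Ccna2, Aurkb, Ube2c, Ccne2 and Mcm4. A CHR, searched as TTTGAA or with the variant TTCGAA on both strands, was found in 14 of 20 mitosis promoters (70%), 3 of 14 replication promoters (21.4%) and 19.7% of all 33469 promoters. An E2F site, searched as TTCCCGC or as the variant forms TTGGCGC, then TTCGCGC, and then TTGCCGC on both strands, was found in 12 of 14 replication promoters (85.7%), 4 of 20 mitosis promoters (20%) and 9.52% of all. The E2F forms overlap each other where they stand head to head, so promoters and not matches were counted. The CCAAT box, searched on both strands, was in 17 of 20 mitosis promoters (85%), 9 of 14 replication promoters (64.3%) and 37.5% of all. A match describes the letters only and does not show that a factor binds.

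The 140 bases before the start of transcription of 5 mitosis genes show the CHR in capitals (TTTGAA in each).
Cdc20 (GRCr8 chr5:137255800-137255939, minus strand): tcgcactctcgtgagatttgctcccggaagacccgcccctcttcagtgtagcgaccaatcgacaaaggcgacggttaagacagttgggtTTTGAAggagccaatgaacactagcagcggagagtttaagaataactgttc
Mki67 (GRCr8 chr1:199952594-199952733, minus strand): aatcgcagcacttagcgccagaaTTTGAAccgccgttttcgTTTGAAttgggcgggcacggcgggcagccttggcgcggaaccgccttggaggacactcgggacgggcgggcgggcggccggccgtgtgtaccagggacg
Cdk1 (GRCr8 chr20:19265153-19265292, plus strand): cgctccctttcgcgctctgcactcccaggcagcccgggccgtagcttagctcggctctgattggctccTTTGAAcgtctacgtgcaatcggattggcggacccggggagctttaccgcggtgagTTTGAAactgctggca
Ccnb2 (GRCr8 chr8:79981659-79981798, minus strand): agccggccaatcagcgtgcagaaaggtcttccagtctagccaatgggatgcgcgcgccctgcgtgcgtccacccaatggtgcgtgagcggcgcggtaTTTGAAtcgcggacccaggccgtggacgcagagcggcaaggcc
Birc5 (GRCr8 chr10:103572006-103572145, plus strand): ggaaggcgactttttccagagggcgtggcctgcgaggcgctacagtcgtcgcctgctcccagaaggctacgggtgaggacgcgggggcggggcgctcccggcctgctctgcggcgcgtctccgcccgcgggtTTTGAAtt
In Cdc20, Ccnb2 and Birc5 the CHR begins 51, 43 and 8 bases before the start. Mki67 and Cdk1 hold a pair of them, the nearer one 99 bases before the start in Mki67 and 16 in Cdk1.

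The same stretch of 5 replication genes shows the E2F site in capitals, with overlapping matches joined in 1 run. These are the helicase genes Mcm2, Mcm5 and Mcm6, the clamp loader gene Rfc4 and the flap endonuclease gene Fen1.
Mcm2 (GRCr8 chr4:122918095-122918234, minus strand): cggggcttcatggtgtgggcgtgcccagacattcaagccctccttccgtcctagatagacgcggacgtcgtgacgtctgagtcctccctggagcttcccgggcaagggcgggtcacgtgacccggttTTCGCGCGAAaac
Mcm5 (GRCr8 chr19:13488673-13488812, plus strand): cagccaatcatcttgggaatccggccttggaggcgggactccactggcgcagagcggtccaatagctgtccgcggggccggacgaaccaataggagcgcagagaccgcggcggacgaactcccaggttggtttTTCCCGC
Mcm6 (GRCr8 chr13:42404353-42404492, minus strand): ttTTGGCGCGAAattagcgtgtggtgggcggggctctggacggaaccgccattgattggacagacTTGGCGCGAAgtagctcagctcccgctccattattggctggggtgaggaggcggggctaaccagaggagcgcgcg
Rfc4 (GRCr8 chr11:91254133-91254272, plus strand): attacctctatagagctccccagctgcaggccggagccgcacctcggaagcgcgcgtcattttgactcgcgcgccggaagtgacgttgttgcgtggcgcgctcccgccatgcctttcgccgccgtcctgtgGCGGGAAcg
Fen1 (GRCr8 chr1:216274397-216274536, minus strand): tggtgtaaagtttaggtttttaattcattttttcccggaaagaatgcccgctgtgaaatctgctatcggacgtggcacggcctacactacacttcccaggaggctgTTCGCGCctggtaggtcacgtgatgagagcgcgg
The match begins 7, 9 and 34 bases before the start in Mcm5, Rfc4 and Fen1. In Mcm2 there are 2 overlapping matches, the nearer of them 10 bases before the start. In Mcm6 there are 4 matches in 2 runs, the nearest 72 bases before the start.

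**Figure D2:**
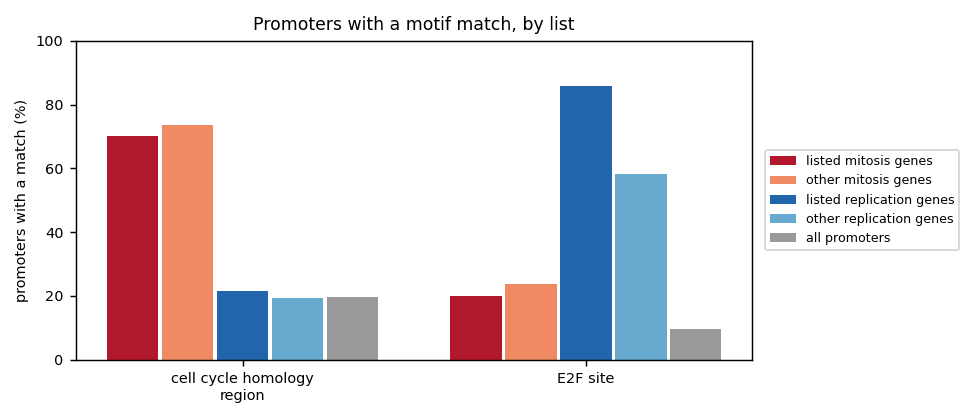
Share of promoters with at least 1 match (vertical axis, percent) to a cell cycle homology region or an E2F site, for the listed mitosis and replication genes, the other genes of both processes and all 33469 promoters. Mitosis genes lead for the first motif, with 70% and 73.7%, and replication genes for the second, with 85.7% and 58.3%.

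No gene of either kind passed limma's adjusted p of 0.05 in any comparison, and neither did any other of the 18515 probe sets tested (0%). The differences below are therefore levels and sizes on the log2 signal scale, each with the standard error (SE) of the fit, and none of them is a call. In bulk RNA, fewer dividing cells and less RNA per cell cannot be told apart. Of the members, 34 entered the fit (19 of mitosis and 15 of replication). Cenpe, Plk1, Ttk, Ccna2 and Ccne1 did not pass the filter on low signals, and list counts and medians below are over all 39 genes with these included.

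Arthritic rats before therapy (RA) had lower mitosis and higher replication signals than healthy rats (NORA), with overlapping arrays for most genes. The median difference was -0.39 for mitosis genes, with 4 of 23 above 0, and 0.20 for replication genes, with 13 of 16 above 0, where all genes had 0.01. Mcm2, a helicase subunit, read 10.25 and 10.08 in RA and 10.16, 9.40 and 9.40 in NORA. The RA arrays lay with the highest NORA array, and the difference was 0.51 ± 0.28 (adjusted p = 0.591). Pcna, the sliding clamp, read 13.59 and 13.33 in RA and 13.48, 12.83 and 12.40 in NORA, a difference of 0.56 ± 0.31. Mcm4, another helicase subunit, differed by 0.54 ± 0.34, again with overlapping arrays.

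Mki67 read 8.29 and 8.28 in RA and 8.50, 8.99 and 10.71 in NORA. Every NORA array was higher, and the difference of -1.11 ± 0.61 had an adjusted p of 0.590. Birc5, an inhibitor of apoptosis that works in cytokinesis, read 6.91 and 5.27 in RA and 7.06, 7.14 and 7.22 in NORA, a difference of -1.05 ± 0.67. Cenpf and Bub1, chosen here after their values were seen because both are near background, had -1.31 ± 0.40 (adjusted p = 0.583) and -1.14 ± 0.42.

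In this comparison 2 of the 34 tested members had an unadjusted p under 0.05, against 8.47% of all probe sets. Arrays did not overlap for 6 of 23 mitosis genes, all lower in RA, and 0 of 16 replication genes, where 10.6% of all genes were higher and 10.6% lower in RA without overlap. Genes of tissues absent from blood were lower in RA too, with a median of -0.75 and 14 of 37 lower without overlap, so signals at background differed in the same direction as the mitosis genes. Markers of red cell precursors and of platelets were lower in RA too, and by more, with medians of -1.37 (0 of 12 above 0) and -1.67 (0 of 10 above 0). The summed platelet signal was 88770 to 127690 in RA and 131300 to 400330 in NORA. The summed erythroid signal overlapped, with 51791 to 75415 in RA and 52026 to 239030 in NORA. T cell markers had a median of 0.31 (14 of 17 above 0), the direction of the replication genes. The part of background signal and of these cells in the mitosis and replication differences was not tested. Over the 14 mitosis genes above background the median was -0.23. The median of mitosis genes was -0.11 without NORA replicate 3 and -0.66 without NORA replicate 1. The replication median was 0.11 without RA replicate 1, and 0.42 with arrays centred on their medians, a scaling that moved all genes to 0.23.

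Needled healthy rats (HAP) differed from healthy rats before therapy (NORA) most in mitosis genes near background, with Bub1b, Cenpf, Ccna2 and Bub1 the furthest below 0. Bub1b, a checkpoint kinase-like protein that delays anaphase, read 2.56, 3.50 and 3.81 in HAP against 7.55, 5.62 and 7.68 in NORA. No array overlapped and the difference was -3.66 ± 0.60 (unadjusted p = 5.89e-05, adjusted p = 0.545). All 3 HAP values lie more than 3 log2 units below the array medians, where the size of a difference has little meaning. With 16 added to each signal before the log the difference was -2.45. Bub1b is named as 1 of the genes with the largest range over the arrays, 5.12 log2 units.

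Cenpf read 6.04, 6.30 and 5.65 in HAP and 7.16, 7.03 and 8.34 in NORA, a difference of -1.51 ± 0.36 (adjusted p = 0.747). The groups did not overlap, and the HAP arrays were below their medians. Bub1 had -0.98 ± 0.38. Of genes above background, Mki67 had -0.93 ± 0.54 and Aurka 0.74 ± 0.43, both with overlapping arrays. For Mki67 the NORA arrays read 8.50, 8.99 and 10.71 and the HAP arrays 8.11, 8.72 and 8.57, so the size leans on NORA replicate 3. For Aurka the NORA arrays read 8.09, 8.06 and 6.20 and the HAP arrays 8.41, 8.46 and 7.70, so the low value of NORA replicate 3 carries the difference.

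The medians were -0.37 for mitosis genes, with 5 of 23 above 0, and 0.08 for replication genes, with 10 of 16 above 0. All genes had 0.09, so replication genes lay with the rest. The erythroid and platelet markers had medians of -0.82 (1 of 12 above 0) and -0.82 (0 of 10 above 0), the same direction as the mitosis genes. The summed erythroid signal was 79773, 52026 and 239030 in NORA and 73393 to 86440 in HAP, so only NORA replicate 3 lay above the HAP arrays. For platelets NORA replicate 1 (131300) lay below all HAP arrays (138580 to 159580). The part of these cells in the result was not tested. Unadjusted p was under 0.05 for 3 of the 34 tested members, against 6.18% of all probe sets. Arrays did not overlap for 3 mitosis genes, all lower in HAP (Bub1b, Cenpf and Bub1), and for 0 replication genes, where 6.60% of all genes were higher and 2.96% lower. No replication gene came with an unadjusted p under 0.15, the limit used for naming. Without NORA replicate 3 the mitosis median was -0.17 and without NORA replicate 1 it was -0.58. The replication median was -0.04 without NORA replicate 2.

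**Figure D3:**
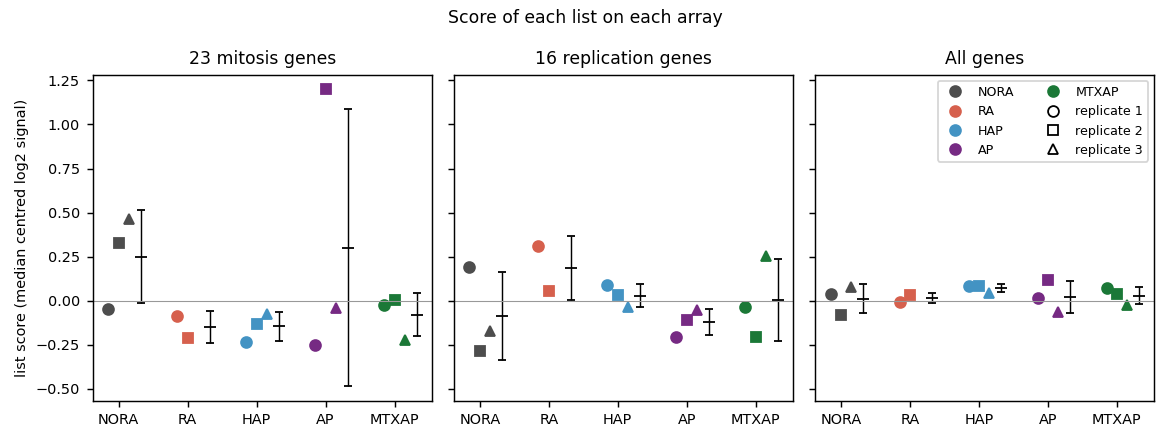
Score of 23 mitosis genes, 16 replication genes and all 14217 genes on each array (vertical axis, the median over genes of a gene's log2 signal minus that gene's own average across all arrays), by group, with the group mean and SD beside the points (n = 2 in RA and 3 in the others). AP replicate 2 has a mitosis score of 1.20, above 0.46 on NORA replicate 3, while the replication scores lie between -0.28 and 0.31.

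Needled arthritic rats (AP) had lower signals of the replication machinery than arthritic rats before therapy (RA). The median of replication genes was -0.30, with 2 of 16 above 0, and that of the 6 Mcm subunits -0.54, with 0 of 6 above 0, where all genes had 0.05. Mcm2 read 9.51, 9.57 and 9.27 in AP and 10.25 and 10.08 in RA. All AP arrays were lower and the difference was -0.71 ± 0.28 (unadjusted p = 0.0264, adjusted p = 0.616). Fen1, which trims the flaps of lagging strand fragments, read 7.83, 7.76 and 7.54 in AP and 8.53 and 8.43 in RA, a difference of -0.77 ± 0.33 (unadjusted p = 0.0370). Mcm4 read 10.34, 10.02 and 9.80 in AP and 11.03 and 10.50 in RA, with -0.71 ± 0.34.

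The other helicase subunits did not move alike. Mcm7 had -0.50 ± 0.27 and Mcm6 -0.59 ± 0.44, with every AP array lower, while Mcm3 had -0.05 ± 0.23 and Mcm5 -0.01 ± 0.36, with overlap. Mcm5 ranged from 7.69 to 9.01 within AP alone. Lig1 had -0.35 ± 0.25, the ribonucleotide reductase subunit Rrm1 -0.23 ± 0.33 and Pola1 -0.40 ± 0.49, all with overlap.

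Lower without overlap in AP were 6 of 16 replication genes: Mcm2, Mcm4, Mcm6, Mcm7, Rfc4 and Fen1. Among all genes 15.7% were lower and 16.4% higher in that way. Of the 34 tested members, 2 had an unadjusted p under 0.05, against 7.83% of all probe sets. Without AP replicate 2 the replication median was -0.31, and without the RA arrays it was -0.15 (replicate 1) and -0.48 (replicate 2). The T cell markers, genes of the main lymphocytes here, had a median of -0.41 in the same comparison, with 5 of 17 above 0 and a summed signal of 71429 to 81508 in AP and 89745 to 104400 in RA. The part of T cells in the replication difference was not tested.

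Mitosis genes ran the other way in AP, with a median of 0.38 and 18 of 23 above 0, and this rested on 1 array. Without AP replicate 2 the median was -0.04, with 11 of 23 above 0. AP replicate 2 was the highest AP array for 19 of 23 mitosis genes (82.6%) and for 38.2% of all genes. Nusap1 read 9.08 on it and 6.90 and 7.14 on the other AP arrays, Ccnb2 9.65 against 7.72 and 8.13, Cdk1 8.71 against 6.999 and 7.80, and Mki67 9.90 against 8.26 and 8.69. It was also the highest of all 14 arrays for Top2a (8.84), Kif20a (8.55) and Plk1 (6.72).

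The replication genes did not set this array apart in the same way, with a score of -0.11 between the other AP arrays and 8 of 16 genes highest on it. Its summed signal of 10 NK cell markers, 58706, was the highest of the 14 arrays, against 25201 and 44765 on the other AP arrays. Its array median, 131.0, was the highest of the group. Its erythroid score, the median centred log2 signal of those markers, was 0.91, against 0.34 and -0.32 on the other AP arrays, and second only to 2.58 on NORA replicate 3, which also had the second highest mitosis score. Platelet markers had a median of 1.42 in AP minus RA, with 10 of 10 above 0 and 9 of 10 higher without overlap. The part of these cells in the mitosis signals was not tested. Mitosis genes higher in AP than in RA without overlap were 3 of 23 (13%), below the 16.4% of all genes, so the count is no result about them. Among them were Cenpf (6.97, 6.83 and 6.61 against 6.18 and 6.22) and Aurka (8.47, 8.42 and 8.81 against 8.004 and 8.24), and 0 were lower. Bub1 had 0.72 ± 0.42, with overlap.

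**Figure D4:**
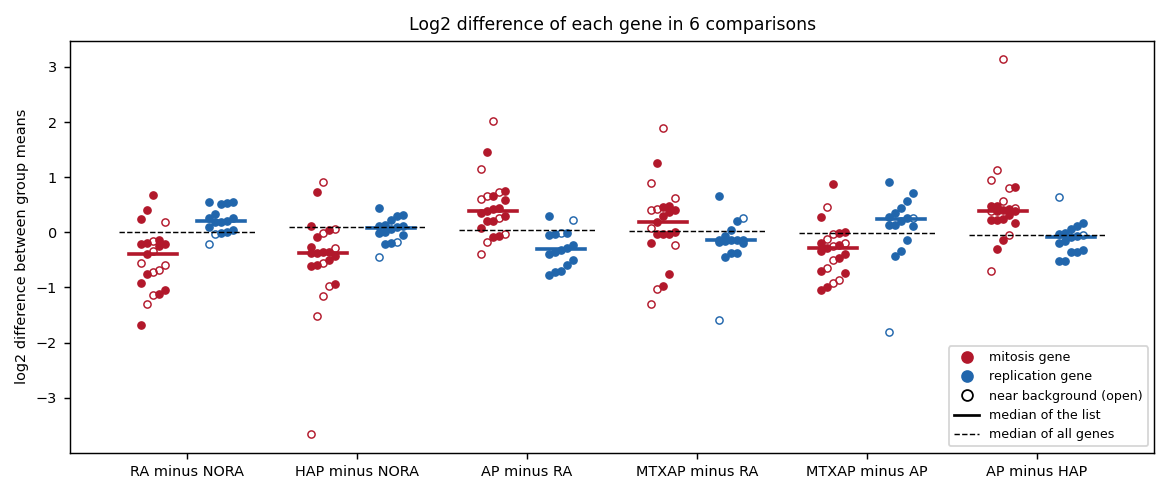
Log2 difference between group means of each mitosis gene (red) and replication gene (blue) in 6 comparisons, with open circles for genes near background, bars at the list medians and a dashed line at the median of all genes. The bars of the lists lie on opposite sides of the dashed line except for replication genes in HAP minus NORA and AP minus HAP, where they are close to it.

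With methotrexate added to needling (MTXAP), signals of the helicase subunits Mcm2 and Mcm4 and of the flap endonuclease Fen1 were higher than with needling alone (AP), and those of cyclin B1, the primase subunit Prim1 and the helicase subunit Mcm3 were lower. Mcm4 read 10.996, 10.72 and 11.16 in MTXAP and 10.34, 10.02 and 9.80 in AP. No array overlapped, and the difference of 0.91 ± 0.31 had an unadjusted p of 0.0127 and an adjusted p of 0.240. Fen1 read 8.71, 8.08 and 8.47 in MTXAP, all above the AP arrays, with 0.71 ± 0.29 (unadjusted p = 0.0328). Mcm2 read 10.21, 9.75 and 10.10, also all above AP, with 0.57 ± 0.25 (unadjusted p = 0.0436). Against RA the MTXAP arrays overlapped for all of these genes, with 0.20 ± 0.34 for Mcm4, -0.06 ± 0.33 for Fen1 and -0.14 ± 0.28 for Mcm2. The differences from AP rest on the same AP arrays that read lower than RA above. The helicase subunits differed among themselves: Mcm3 was lower on all MTXAP arrays, with -0.34 ± 0.21, and Mcm5 (-0.15 ± 0.33), Mcm6 (0.44 ± 0.39) and Mcm7 (0.13 ± 0.24) overlapped.

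Prim1, the subunit that makes the RNA primers of DNA synthesis, read 9.77, 9.70 and 10.05 in MTXAP and 10.24, 10.41 and 10.13 in AP. All MTXAP arrays were lower, with -0.42 ± 0.19 (unadjusted p = 0.0490). Prim1 and Mcm3 are named in this comparison after their values were seen. Ccnb1, the cyclin that drives entry into mitosis, read 6.53, 6.70 and 6.50 in MTXAP and 6.86, 8.58 and 7.44 in AP, with -1.05 ± 0.42 (unadjusted p = 0.0279). All 3 MTXAP arrays were below their medians for Ccnb1, so its level there is near background. A second, dimmer Ccnb1 probe set had -0.68. Aurkb differed by -0.70 ± 0.30, with 1 AP array (7.28) inside the MTXAP range of 6.92 to 7.38. Bub1 had -0.64 ± 0.38.

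Replication genes had a median of 0.23 in this comparison, with 12 of 16 above 0, and mitosis genes -0.29, with 4 of 23 above 0, where all genes had -0.01. Markers of other cells had medians below 0 along with the mitosis genes: -0.82 for monocytes (1 of 12 above 0), -0.58 for NK cells (0 of 10 above 0) and -1.04 for erythroid cells (1 of 12 above 0). The summed erythroid signal was 84344, 105530 and 5435 in MTXAP and 77399, 102930 and 47467 in AP, so only MTXAP replicate 3 lay below the AP arrays. Summed monocyte signals overlapped, with 45808 to 74300 in MTXAP and 68582 to 79031 in AP. T cell markers had a median of -0.17 (3 of 17 above 0), opposite to the replication genes. The part of these cells in the result was not tested. Unadjusted p was under 0.05 for 6 of the 34 tested members, near the share of 14.8% of all probe sets, so the count is no result about them. Without overlap 3 of 16 replication genes were higher (18.8%, all genes: 9.95%) and 3 lower (18.8%, all genes: 9.33%). Lower without overlap were 2 of 23 mitosis genes (8.7%), below the share of all genes. The replication median was -0.01 without MTXAP replicate 3, with 8 of 16 above 0, since that array was the highest of its group for 13 of 16 replication genes (all genes: 33.2%). Without that array Fen1 still had 0.68 and Mcm2 0.53, and Mcm4 had 0.81, all 3 with the same sign. The mitosis median was -0.16 without AP replicate 2.

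Against arthritic rats before therapy (RA), the MTXAP arrays showed Aurkb, Ccnb1 and Prim1 lower and Birc5 and Gmnn higher. Aurkb read 6.92, 7.09 and 7.38 in MTXAP and 7.85 and 7.93 in RA, a difference of -0.76 ± 0.34 (unadjusted p = 0.0450, adjusted p = 0.922). Ccnb1 had -0.97 ± 0.47, with RA arrays at 7.56 and 7.54, and Prim1 -0.45 ± 0.22, with RA arrays at 10.24 and 10.34. Mcm3 had -0.38 ± 0.23. Gmnn, geminin, which keeps origins from being licensed again, read 10.12, 9.51 and 9.53 in MTXAP and 9.16 and 8.98 in RA, a difference of 0.65 ± 0.37. Birc5 had 1.26 ± 0.67, with the RA array at 5.27 far below the other at 6.91. None of these groups of arrays overlapped. A second, dimmer Gmnn probe set, above the median on 3 arrays, had the opposite sign, with -0.19. Bub1b, near background, had -1.04 ± 0.67, with overlap.

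The replication median was -0.15 (4 of 16 above 0) and the mitosis median 0.19 (14 of 23 above 0) against RA, beside 0.02 for all genes. Platelet markers had 0.93 (10 of 10 above 0) and T cell markers -0.45 (1 of 17 above 0), and their part in the result was not tested. Among the 34 tested members 1 had an unadjusted p under 0.05, where 5.40% of all probe sets did. Higher without overlap were 6 mitosis genes and 1 replication gene (10.8% of all genes), and lower were 2 and 4 (10.9%). The genes of tissues absent from blood had a median of 0.72 here and the mitosis genes above background 0.10. The replication median was -0.33 without RA replicate 2 and -0.01 without RA replicate 1. The mitosis median was 0.00 without MTXAP replicate 1 and 0.39 without MTXAP replicate 3. AP and MTXAP are both set against the same RA arrays and AP enters 4 of the comparisons, so the rows of differences are not independent.

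**Figure D5:**
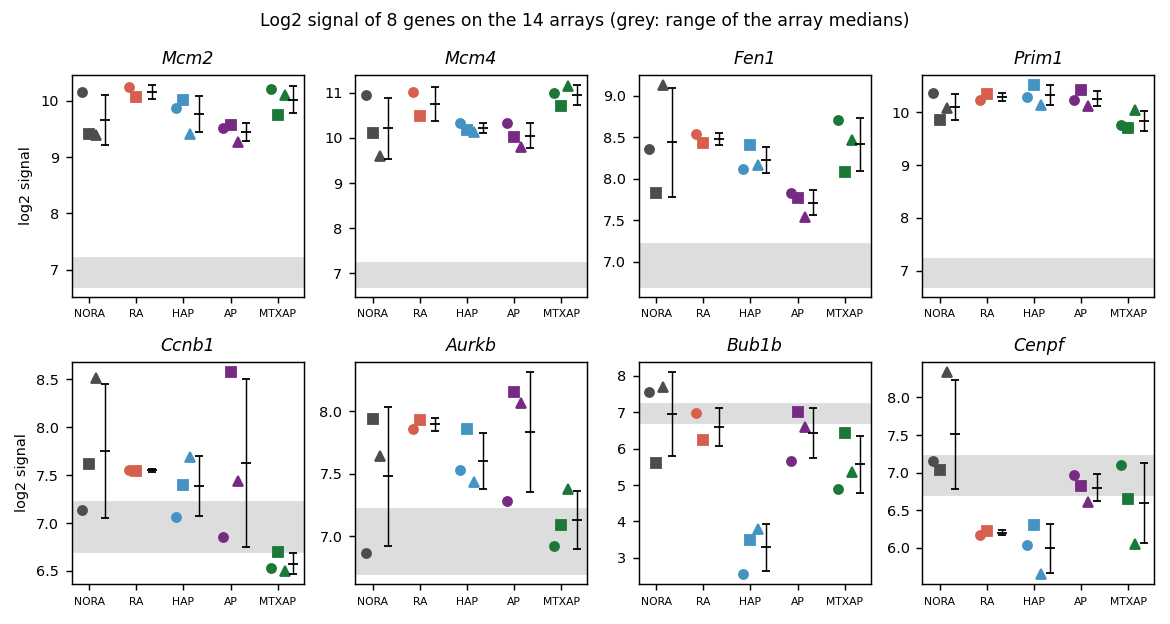
Log2 signal (vertical axis, its own range in each panel) of 8 genes on the 14 arrays by group, with mean and SD (n = 2 in RA and 3 in the others) and a grey band over the range of the array medians. Mcm2, Mcm4, Fen1 and Prim1 lie above the band on every array, all MTXAP values of Ccnb1 are at or under it, and the HAP values of Bub1b lie between 2.56 and 3.81.

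Between needled arthritic (AP) and needled healthy rats (HAP), mitosis genes had a median of 0.39, with 19 of 23 above 0, and replication genes -0.08, with 4 of 16 above 0, beside -0.05 for all genes. Platelet markers had 0.73 (9 of 10 above 0) and NK markers 0.67 (9 of 10 above 0), and their part in the result was not tested. Without AP replicate 2 the mitosis median was 0.01. Bub1b had 3.14 ± 0.60 (unadjusted p = 0.000228, adjusted p = 0.636), with AP arrays at 5.67, 7.01 and 6.59, all below their medians, as were the HAP arrays. Cenpf had 0.80 ± 0.36, with every AP array higher. Mcm7 read 10.59, 10.65 and 10.18 in AP and 10.94, 11.23 and 10.84 in HAP, lower on all AP arrays, with -0.53 ± 0.24. Fen1 was lower on all AP arrays too, with -0.52 ± 0.29. Lig1, the ligase that seals lagging strand fragments, had -0.36 ± 0.22 and Cdk1 0.82 ± 0.47, both with overlap. Unadjusted p was under 0.05 for 2 of the 34 tested members and 5.68% of all probe sets. Without overlap 2 mitosis genes were higher (6.13% of all genes) and 3 replication genes lower (9.16%).

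The difference between both time courses, (AP minus RA) minus (HAP minus NORA), asks whether arthritic rats changed otherwise than healthy ones. It had a median of 0.75 for mitosis genes, with 20 of 23 above 0, and -0.31 for replication genes, with 2 of 16 above 0, beside -0.06 for all genes. Platelet markers had 2.42 (10 of 10 above 0) and erythroid markers 1.54 (11 of 12 above 0), in the direction of the mitosis genes and further. Both take in NORA replicate 3, which had the highest summed signal of both marker lists. The part of these cells in the result was not tested. Mcm2 had -0.82 ± 0.38 (adjusted p = 0.382) and Mki67 1.60 ± 0.82 (adjusted p = 0.408). For Mki67 the NORA arrays read 8.50, 8.99 and 10.71 and the AP arrays 8.26, 9.90 and 8.69. Its size thus leans on NORA replicate 3 and AP replicate 2. The near-background genes Cenpf, Bub1b and Bub1 had 2.11 ± 0.53, 3.48 ± 0.90 and 1.70 ± 0.56, each with an adjusted p of 0.360. Unadjusted p was under 0.05 for 3 of the 34 tested members, all mitosis genes near background, and for 13.1% of all probe sets. Without AP replicate 2 the mitosis median was 0.35. With array weights, Cenpf alone of the members passed (1.90, adjusted p = 0.0238), 1 of 34 (2.94%), where 8.92% of all probe sets passed.

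Ube2c, the ubiquitin enzyme of the anaphase-promoting complex, had the largest range of all members above background, 5.27 log2 units. It read 12.58 on NORA replicate 3 and 7.31 on MTXAP replicate 3, and 9.26 to 11.65 on the other 12 arrays. Those are the arrays with the highest and lowest summed erythroid signal. The part of erythroid cells in Ube2c was not tested. Mki67 was likewise highest on NORA replicate 3 (10.71), whereas Aurka was lowest there (6.20). Kif20a, a kinesin of cytokinesis, read 4.12 on RA replicate 2 and 4.15 on MTXAP replicate 3 and 5.78 to 8.55 elsewhere. Its groups therefore have wide spreads.

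Other genes of the same processes gave no call either. Of 36 other replication genes 27 were above background and of 36 other mitosis genes 24. Their medians kept the sign of the listed genes in AP minus RA, with -0.14 for replication (14 of 36 above 0) and 0.24 for mitosis (25 of 36 above 0). In MTXAP minus AP they were 0.03 (20 of 36 above 0) and -0.18 (15 of 36 above 0). Orc6, a subunit of the origin recognition complex, and Pold3, a subunit of DNA polymerase delta, were lower on all AP arrays than on both RA arrays, with -0.96 ± 0.32 and -0.80 ± 0.34, and higher in MTXAP than in AP without overlap, with 0.78 ± 0.29 and 0.93 ± 0.30 (adjusted p = 0.269 and 0.230). Both differences rest on the same AP arrays. Pole2, a subunit of polymerase epsilon, had 1.04 ± 0.39 in MTXAP minus AP. Stmn1, which takes microtubules apart, had -0.68 ± 0.24 there.

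Of 33 cell cycle control genes, 26 were above background. In MTXAP minus AP the pocket protein Rbl2, a relative of the retinoblastoma protein, had -0.93 ± 0.23 (adjusted p = 0.186) and the G1 kinase Cdk4 -0.76 ± 0.24 (adjusted p = 0.215), both lower on all MTXAP arrays. The retinoblastoma gene Rb1 had 1.38 ± 0.60 in AP minus RA. Of 11 genes of folate and nucleotide synthesis, the route that methotrexate blocks, 10 were above background, with a median of -0.02 in MTXAP minus AP and 5 of 11 above 0. Ppat, the first enzyme of purine synthesis, had -0.52 ± 0.20 there (adjusted p = 0.275), lower on all MTXAP arrays. Shmt1 and Shmt2, the cytosolic and mitochondrial enzymes that pass carbon from serine to folate, had 0.66 ± 0.31 and -0.41 ± 0.18.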

How the data were processed

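The authors hybridised total RNA of PBMC to Affymetrix rat230 2.0 arrays and deposited 1 intensity per probe set, the MAS5 signal from the affy package (version not given in the sources used here). Every array has a trimmed mean of 500 (2% removed at each end). Of 31099 probe sets, 57 controls were left out. The table given with the data names 1 gene for 20826 probe sets, several for 436 and none for 9780. On the log2 scale, with nothing added, limma (version 3.58.1; R 4.3.3) estimated the 5 group means from all 14 arrays, and 7 contrasts were tested, two-sided. The 18515 probe sets above the array median on at least 2 arrays entered, and Benjamini-Hochberg adjusted p under 0.05 was the call. The fit was tested on simulated data. Intensities carry no counts, so the number of arrays limits the precision. Named members had, in each comparison and for mitosis and replication apart, up to 3 of the smallest unadjusted p (under 0.15) above background, or the largest range. Bub1 and Cenpf, near background, were added after their values were seen, as were Prim1 and Mcm3 in MTXAP minus AP and Aurka in AP minus RA. The same holds for other members given with values outside this rule, such as Mcm3, Mcm5, Mcm6, Mcm7, Lig1, Rrm1 and Pola1 in AP minus RA. It also holds for the example genes of AP replicate 2. Of other lists up to 3 genes were named. The genes and lists were chosen with earlier results of these data known. Alternatives were another scaling, pseudocount, filter, array weights, replicate block, each array left out, the 12 arrays without NORA replicate 3 and MTXAP replicate 3, only the groups compared, other probe sets, and the thresholds of the study (p 0.05, fold 2). Promoters came from RefSeq and were searched with Python. Detection calls were not used here.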

Additional observations from a re-analysis of the deposited data

Results flagged for a closer look

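Cenpf, the kinetochore protein near background, was the 1 gene of the 39 whose arrays all moved one way in arthritic rats and the other way in healthy rats. Every AP array was above both RA arrays and every HAP array below every NORA array, and the difference between these differences was 2.11 (limma's adjusted p = 0.360, so the test of the difference was not passed). Of all 14217 genes 223 had such opposite directions (1.57%), so 1 of 39 (2.56%) is close to the share in all genes.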

How the results depend on the processing

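The 40 differences followed here, of genes named by the rule and of Bub1b, Bub1 and Cenpf, kept their sign in every alternative run. All had limma's unadjusted p under 0.15 in the main fit of the same arrays. A kept sign therefore follows in part from that choice and is no separate support. The run with only the groups compared cannot change a difference of group means at all. Other differences given above were not followed gene by gene. Among these are Prim1 and Mcm3 in MTXAP minus AP and Cenpf and Aurka in AP minus RA. Leaving out NORA replicate 2 gave Bub1b -4.33 in HAP minus NORA (limma's adjusted p = 0.0314), 1 of 34 members (2.94%). In that fit 0.0216% of all probe sets were called, and the HAP values of Bub1b lie far below the array medians. Without NORA replicate 1, Cenpf had 2.29 in the difference between time courses (limma's adjusted p = 0.0444). That is 1 of 34 members (2.94%), where 5.29% of all probe sets were called. With array weights 765, 1, 2 and 1651 probe sets were called in RA minus NORA, HAP minus NORA, MTXAP minus AP and the difference between time courses. In AP minus RA 1 was called with only the groups compared and 1 with no filter, and in MTXAP minus AP 1 with the stricter filter. The thresholds of the study gave 866, 426, 670, 423, 833, 347 and 1886 in the order RA minus NORA, HAP minus NORA, AP minus RA, MTXAP minus RA, MTXAP minus AP, AP minus HAP and the difference between time courses.

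Leaving out 1 array, calls ran from 0 to 168 in RA minus NORA, 0 to 4 in HAP minus NORA, 0 to 4 in AP minus RA, 0 to 13 in MTXAP minus RA, 0 to 1 in MTXAP minus AP and 0 to 980 in the difference between time courses. Where RA was left with 1 array, that array was assumed to vary like the other groups. Medians ran from -0.040 to 0.61 for mitosis genes in AP minus RA, from -0.33 to -0.013 for replication genes in MTXAP minus RA and from -0.013 to 0.30 for replication genes in MTXAP minus AP. The last was -0.013 on the 12 arrays as well. Centring arrays on their medians gave replication genes 0.42 in RA minus NORA. Limits at the 40th and 60th percentiles put 5 and 16 mitosis genes near background, and 1 replication gene at the 40th. The cause of these changes was not tested.

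With the replicate number as a block no probe set was called, and the medians in AP minus RA were 0.47 for mitosis and -0.28 for replication genes. Same-numbered arrays correlated at 0.03 on average after removal of group means, and arrays of different number at -0.01. The 26 same-numbered pairs ran from -0.42 to 0.37, with 10 over 0.1, and 3 of 14 arrays were closest to one of their own number. An average cannot show whether some numbers share a factor. Groups of 2 or 3 arrays limit what could be called.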
